A study of Mus musculus with 5 samples.

Results

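The genes described here are 10 transcripts of mature neutrophils that encode alarmins, receptors and secreted or surface proteins, namely S100a8, S100a9, Fpr1, Fpr2, Csf3r, Retnlg, Il1r2, Ly6g, Trem1 and Mgam. They were picked by gene symbol from the 54113 named entries of the count table, and their levels at 30 °C and at 4 °C in these same tumours were known when they were picked. Their difference between the groups is therefore given as a description, with no test. All 10 symbols were found in the table, each carried enough counts to enter the comparison of all genes, and none was lost to the filter on low counts. The study asked how housing in the cold alters tumours. Mice of the C57BL/6 strain carried tumours grown from MC38 cells, a mouse colon carcinoma line, and lived at 30 °C or at 4 °C for 2 weeks before the tumours were removed. RNA-seq covered 3 tumours from mice at 30 °C and 2 tumours from mice at 4 °C, which are numbered as replicates within each temperature. All mice carried the tumour, so no tissue of tumour-free mice served as a reference, and the labels give neither the age nor the sex of the animals. The study describes the 3 and 2 samples of this comparison as biological samples. The labels do not say whether each library came from a separate animal, so the spread between libraries may be partly technical.

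Neutrophils are short-lived granulocytes that mature in the bone marrow, enter the blood and reach inflamed tissue and tumours. During maturation they fill their primary granules early and their secondary and tertiary granules later, and some of their surface receptors appear late. S100a8 and S100a9 form calprotectin, a calcium-binding complex that is abundant in the neutrophil cytosol and acts as an alarmin once released, in part through Tlr4 and Ager. Fpr1 and Fpr2 are chemoattractant receptors for formylated peptides of bacteria and mitochondria, and Csf3r is the receptor for the growth factor G-CSF. Il1r2 is a decoy receptor that binds interleukin-1 without signalling, and Trem1 is an activating receptor that signals through the adaptor Tyrobp. Ly6g is the surface antigen by which mouse neutrophils are usually sorted, Retnlg is a secreted resistin-like protein of mouse neutrophils, and Mgam is maltase-glucoamylase, an enzyme of the intestinal brush border that neutrophils also express.

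Counts on named genes ranged from 16191708 to 20320525 per library. The makeup of the libraries differed before any comparison of the 10 genes. Genes of pancreatic acinar cells took 27.1% of the counts of 30 °C replicate 2, 0.268% of 4 °C replicate 2 and at most 0.00828% of the other 3 libraries. Because such a block lowers the CPM (counts scaled to a common library total) of all other genes in that library, levels are given as CPM scaled by the TMM factors of edgeR, called scaled CPM here. The label of a tumour of colon carcinoma was checked against 10 epithelial genes, which summed to between 17.9 and 172 scaled CPM. The intestinal markers Cdx2 and Vil1 had at most 8 and 4 counts in any library, and Krt19 had 0 counts in 2 of the 5. By contrast, 8 B cell genes summed to between 1157 and 3543 scaled CPM, and 8 genes of splenic stroma and red pulp to between 699 and 1009. Vcam1 alone gave between 375 and 606 of the latter sum, whereas Tlx1, Nkx2-5 and Nkx2-3 each lay between 3.94 and 28.0. The intestinal markers were thus near the detection limit. The general epithelial genes Epcam (128 to 200 counts), Krt8 (59 to 966), Krt18 (16 to 624) and Cdh1 (42 to 403) were detected in every library. The highest counts of Krt18 and Cdh1 were in 30 °C replicate 2, and the highest of Krt8 in 4 °C replicate 2. These libraries also held the largest shares of acinar counts. The libraries are called tumours here because the labels call them so. In bulk tissue, fewer neutrophils and less RNA per neutrophil cannot be told apart.

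The alarmin genes lie side by side, and so do the formyl peptide receptor genes, so each pair is shown with its start. On mouse build GRCm38, with GENCODE gene models, S100a8 lies on the forward strand at chr3:90668978-90670035 and S100a9 on the reverse strand at chr3:90692632-90695721, with 22596 bases between them. Fpr1 lies on the reverse strand at chr17:17876471-17883940 and Fpr2 on the forward strand at chr17:17887824-17893952, with 3883 bases between them. The sequences below are promoter bases from RefSeq (GRCm38.p6), read 5′ to 3′ on the strand of the gene and ending at the base before the most upstream annotated start, at chr3:90668821-90668977 for S100a8, chr3:90695722-90695971 for S100a9, chr17:17883941-17884189 for Fpr1 and chr17:17887574-17887823 for Fpr2. Capitals mark matches, on either strand, to TTNNGNAA (letters bound by C/EBP factors), GAGGAA (PU.1), TTCNNNGAA (STAT factors) and TATAAA (the TATA box).
S100a8: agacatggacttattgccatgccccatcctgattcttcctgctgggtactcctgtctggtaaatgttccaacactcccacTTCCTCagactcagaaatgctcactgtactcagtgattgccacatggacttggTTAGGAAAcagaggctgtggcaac
S100a9: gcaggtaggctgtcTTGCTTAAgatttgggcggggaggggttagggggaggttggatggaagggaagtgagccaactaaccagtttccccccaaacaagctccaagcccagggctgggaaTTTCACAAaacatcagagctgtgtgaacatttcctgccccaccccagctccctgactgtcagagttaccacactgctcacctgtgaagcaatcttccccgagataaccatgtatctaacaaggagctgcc
Fpr1: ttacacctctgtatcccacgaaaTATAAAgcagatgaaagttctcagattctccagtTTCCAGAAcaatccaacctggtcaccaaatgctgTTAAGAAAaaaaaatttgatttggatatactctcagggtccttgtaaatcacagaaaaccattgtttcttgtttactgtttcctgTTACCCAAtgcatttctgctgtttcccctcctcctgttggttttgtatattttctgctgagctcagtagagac
Fpr2: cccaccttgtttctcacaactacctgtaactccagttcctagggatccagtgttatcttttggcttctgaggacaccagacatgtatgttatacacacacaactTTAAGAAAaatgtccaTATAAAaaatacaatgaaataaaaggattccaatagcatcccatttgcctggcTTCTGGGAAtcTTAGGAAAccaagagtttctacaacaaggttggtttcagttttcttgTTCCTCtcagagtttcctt
Motifs were counted in the full RefSeq windows of 250 bases before each RefSeq start, for the 10 genes as for all 32841 windows. Where gene models start further upstream than RefSeq the printed bases stop earlier, at 157 for S100a8 and 249 for Fpr1, so a counted match can lie outside them. In the full windows, 7 of the 10 genes held TTNNGNAA, beside 36.9% of all windows. GAGGAA was held by 5 of the 10, beside 23.3% of windows, and TATAAA also by 5, beside 12.4% of windows, with that of S100a8 past its printed bases. TTCNNNGAA was found in the full windows of Fpr2, Il1r2 and Trem1, beside 7.02% of windows. Matches of different motifs may overlap, as in Trem1, where TTCNNNGAA and GAGGAA share bases. A match is only a run of letters, and binding was not measured.

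S100a8 and S100a9 gave the most counts of the 10 genes in every library, and were also the highest per exon length. S100a8 stood at 2657, 1458 and 489 scaled CPM in 30 °C replicates 1, 2 and 3, and at 446 and 739 in 4 °C replicates 1 and 2. S100a9 stood at 3985, 2529 and 879 scaled CPM in the same 30 °C libraries and at 732 and 1175 at 4 °C. In both genes the groups overlapped, since 4 °C replicate 2 lay above 30 °C replicate 3. S100a8 averaged 1535 ± 1086 scaled CPM over the 3 tumours at 30 °C and 593 ± 207 over the 2 at 4 °C (means ± SD), which corresponds to −1.37 as the log2 fold change. S100a9 averaged 2464 ± 1554 and 953 ± 314 scaled CPM, with the same log2 fold change of −1.37. Fold changes are those of the edgeR fit, given for 4 °C against 30 °C, so a negative value is a lower level in the cold. Together the alarmins gave between 86.1% and 92.8% of all counts on the 10 genes. The 10 genes in turn took 0.772%, 0.317% and 0.179% of the library at 30 °C and 0.140% and 0.218% at 4 °C, with the highest share in 30 °C replicate 1 (95% Wilson interval 0.768% to 0.776%).

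**Figure D1:**
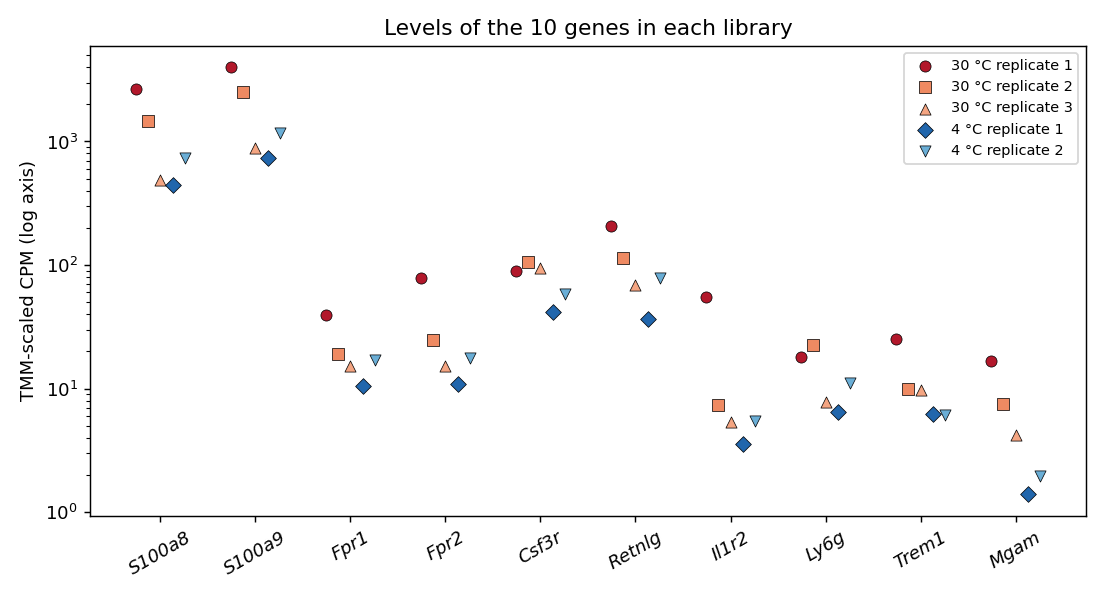
Level of each of the 10 genes in each of the 5 libraries, in TMM-scaled CPM on a log axis, with a point for every library. 30 °C replicate 1 is highest in 8 genes, and 4 °C replicate 2 lies above 30 °C replicate 3 in 7.

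The alarmins kept nearly the same proportion to each other in every tumour. S100a8 gave 40.0%, 36.6% and 35.8% of the counts of the pair at 30 °C and 37.9% and 38.6% at 4 °C. The shares of the 4 °C libraries lay within the range of the 30 °C libraries, although the level of the pair differed several-fold among tumours. At these depths the widest 95% Wilson interval of this share ran from 37.3% to 38.5%, in 4 °C replicate 1. The intervals given here hold for counting error alone, because reads amplified by PCR and not tagged with molecular identifiers do not stand for separate molecules.

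Both formyl peptide receptors were highest in 30 °C replicate 1, and Fpr2 stood out there more than Fpr1. Fpr1 reached 39.6, 18.9 and 15.2 scaled CPM at 30 °C and 10.5 and 17.0 at 4 °C. Fpr2 reached 77.8, 24.6 and 15.3 scaled CPM at 30 °C and 10.8 and 17.6 at 4 °C. The groups overlapped in both, with 4 °C replicate 2 above 30 °C replicate 3. The log2 fold change was −0.84 for Fpr1 and −1.47 for Fpr2. Fpr2 gave 66.3% of the counts of the pair in 30 °C replicate 1 (95% Wilson interval 64.3% to 68.2%) and 56.5% in 30 °C replicate 2 (52.2% to 60.7%). Its share was 50.1%, 50.8% and 50.9% in 30 °C replicate 3 and in 4 °C replicates 1 and 2. The interval of 30 °C replicate 1 lay above those of the other 4 libraries, whereas the last 3 libraries overlapped closely. The formyl peptide receptor and Ly6 families hold similar copies, and how reads matching several genes were counted is not given in the sources used here, so the values of Fpr1, Fpr2 and Ly6g carry that uncertainty.

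The cytokine receptors Csf3r and Il1r2 differed in their pattern. Csf3r reached 89.0, 106 and 94.8 scaled CPM at 30 °C and 41.4 and 58.4 at 4 °C. It was even among the 30 °C libraries, with a mean ± SD of 96.5 ± 8.51 over 3 tumours, and the groups did not overlap. In the cold it averaged 49.9 ± 12.0 scaled CPM over 2 tumours, and the log2 fold change was −0.95. Il1r2 reached 55.3, 7.38 and 5.32 scaled CPM at 30 °C and 3.58 and 5.50 at 4 °C. A single tumour, 30 °C replicate 1, thus lay far above the other 4 libraries, among which 4 °C replicate 2 exceeded 30 °C replicate 3. The log2 fold change of Il1r2 was −2.32 over all libraries and −0.48 without 30 °C replicate 1. On library totals without the acinar counts, and with no TMM factors, the groups of Il1r2 no longer overlapped. The lowest 30 °C level was then 6.00 (replicate 3) and the highest 4 °C level 5.70 (replicate 2). Dropping the TMM factors alone already put the former above the latter, at 6.00 against 5.68. The groups still overlapped in that setting, because 30 °C replicate 2 stood at 5.44.

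Il1r2 was also weighed against Il1r1, the signalling receptor for the same ligands. Il1r2 gave 67.0% of the counts of these receptors in 30 °C replicate 1 (95% Wilson interval 64.6% to 69.3%), 31.7% in 30 °C replicate 2 and 20.6% in 30 °C replicate 3. At 4 °C the share was 10.3% in replicate 1 and 18.3% in replicate 2. The decoy receptor thus gave more counts than Il1r1 in 1 tumour of 5. Counts of Il1r2 for each count of Csf3r were 0.622 in 30 °C replicate 1 and between 0.0561 and 0.0943 in the other 4 libraries, so the excess of Il1r2 in that tumour was not shared by Csf3r.

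**Figure D2:**
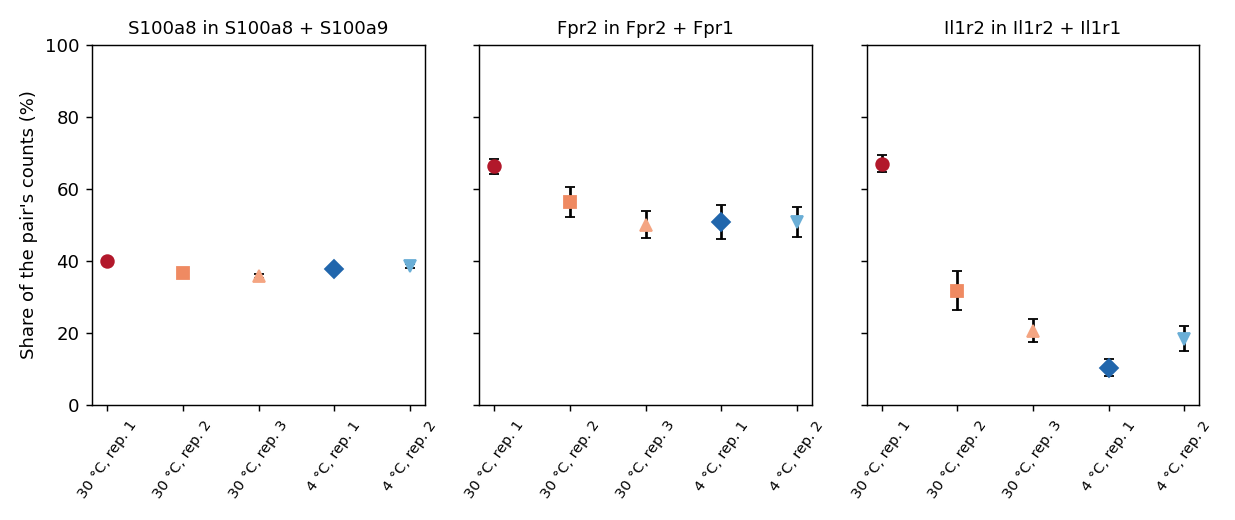
Share of counts (%) of S100a8 in the S100a8 and S100a9 pair, of Fpr2 in the Fpr2 and Fpr1 pair and of Il1r2 in the Il1r2 and Il1r1 pair, with a point for each library and its 95% Wilson interval. The alarmin share stays between 35.8% and 40.0%, whereas the Il1r2 share ranges from 10.3% to 67.0%.

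The activating receptor Trem1 was lower in both 4 °C tumours than in any 30 °C tumour. It reached 25.1, 9.92 and 9.77 scaled CPM at 30 °C and 6.26 and 6.10 at 4 °C, a log2 fold change of −1.27. On library totals without TMM factors its groups lay closer. The lowest 30 °C value was then 7.32 CPM (replicate 2, 121 counts) and the highest 4 °C value 6.77 (replicate 1, 126 counts). Ly6g reached 18.1, 22.6 and 7.85 scaled CPM at 30 °C and 6.46 and 11.1 at 4 °C. Its groups overlapped, its highest library was 30 °C replicate 2, and its log2 fold change was −0.88.

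The secreted Retnlg ranked just below the alarmins per exon length, and the enzyme gene Mgam ranked last. Retnlg reached 208, 114 and 68.7 scaled CPM at 30 °C and 36.9 and 78.3 at 4 °C, with overlapping groups and a log2 fold change of −1.18. Retnlg and Ly6g, both used as neutrophil markers, were not in a fixed proportion. There were 11.5 counts of Retnlg for each count of Ly6g in 30 °C replicate 1, 5.05 in 30 °C replicate 2 and 8.75 in 30 °C replicate 3, and 5.71 and 7.08 at 4 °C. Mgam reached 16.6, 7.46 and 4.19 scaled CPM at 30 °C and 1.39 and 1.97 at 4 °C. Both 4 °C libraries lay below every 30 °C library, and its log2 fold change of −2.49 was the largest in size of the 10. The 4 °C values of Mgam rest on 28 and 33 counts, and the exact Poisson 95% interval of the lower was 0.924 to 2.01 scaled CPM.

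All 10 genes had a negative log2 fold change, beside 49.3% of all 16133 genes tested, and the median was −1.32, beside 0.01 over all genes tested. The groups did not overlap, with 4 °C lower, for Csf3r, Trem1 and Mgam, which is 3 of the 10, beside 11% of all genes tested. Because the genes were picked with these values known, nothing is read from these counts. Across all genes the quasi-likelihood test of edgeR called 0 genes at an adjusted p under 0.05 (0%), with 1090 (6.76%) at an unadjusted p under 0.05, and DESeq2 called 118 (0.731%).

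The tumours took nearly the same order in most of the genes. In 6 of the 10, the order from high to low was 30 °C replicate 1, 30 °C replicate 2, 4 °C replicate 2, 30 °C replicate 3 and 4 °C replicate 1. 30 °C replicate 1 was the highest library for 8 of the 10, beside 18.9% of all genes tested, and 30 °C replicate 2 for Csf3r and Ly6g. 4 °C replicate 1 was the lowest for 9 and 4 °C replicate 2 for Trem1. 30 °C replicate 3 exceeded 4 °C replicate 1 in all 10 genes but lay below 4 °C replicate 2 in 7. 30 °C replicates 1 and 2 thus formed the upper end, and 30 °C replicate 3 lay among the cold tumours for most of the genes.

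Leaving out a library showed how far each gene depended on it. The median log2 fold change of the 10 genes was −0.69 without 30 °C replicate 1, −1.40 without 30 °C replicate 2 and −1.64 without 30 °C replicate 3. It was −1.06 without 4 °C replicate 1 and −1.79 without 4 °C replicate 2. Every one of the 10 stayed negative each time. Without 30 °C replicate 1, Fpr1 came to −0.31, Fpr2 to −0.49 and Trem1 to −0.67, and S100a8 and S100a9 to −0.72 and −0.84. Csf3r moved least with that tumour, to −1.01, and ranged from −1.24 to −0.72 over the 5 fits. Mgam stayed between −2.84 and −1.78.

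**Figure D3:**
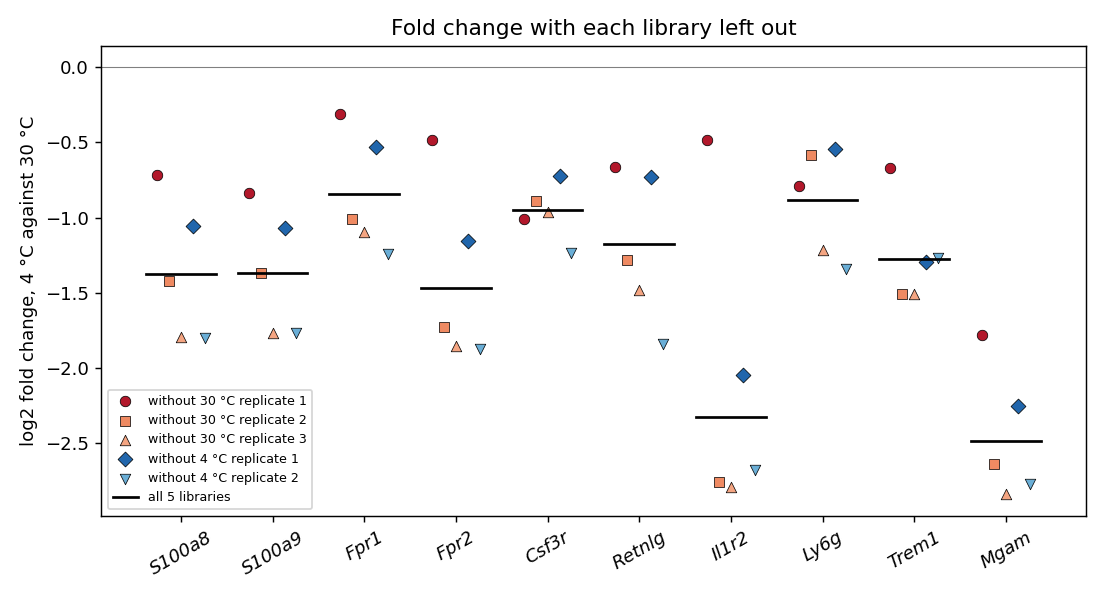
Log2 fold change (4 °C against 30 °C) of each gene in the edgeR fit on all 5 libraries (black bar) and with each library left out (points). All points lie below 0, and those without 30 °C replicate 1 are nearest to 0 in S100a8, S100a9, Fpr1, Fpr2, Retnlg, Il1r2, Trem1 and Mgam.

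Levels were set beside each other between genes only after division by the length of the merged exons. Mean scaled CPM per kilobase at 30 °C was 4720 for S100a9, 2212 for S100a8 and 220 for Retnlg, and these 3 kept that order in every library. Fpr2 followed at 30.3, Csf3r at 26.7, Fpr1 at 18.6, Ly6g at 17.2 and Il1r2 at 11.9. Fpr2 and Csf3r did not differ beyond their spread, since Fpr2 ran from 11.8 to 60.0 and Csf3r from 24.7 to 29.3 over the 30 °C libraries. They changed places at 4 °C, where Csf3r averaged 13.8 and Fpr2 10.96. Nor did Fpr1, Ly6g and Il1r2 separate beyond their spread at 30 °C. Trem1 came to 4.99, within the range of Il1r2, and Mgam to 1.08, with all 3 libraries below those of Trem1.

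Other neutrophil genes, listed by granule class and stage, followed the 10 genes across the tumours. Of 38 such genes tested, from 44 listed, 37 had a negative log2 fold change and 35 were highest in 30 °C replicate 1, beside 49.3% and 18.9% of all genes tested. These and the related lists below were chosen with earlier results of these data known, so such counts are given as a description. None of the 38 passed the test of edgeR over all genes at an adjusted p under 0.05, and DESeq2 called 0. At an unadjusted p under 0.05, 10 were lower at 4 °C and 0 higher, beside 4.17% and 2.58% of all genes. The median log2 fold change was −1.89 over 6 primary granule genes, −1.39 over 13 secondary and tertiary granule genes and −1.04 over 19 other mature neutrophil genes. Without 30 °C replicate 1 these medians were −1.19, −0.80 and −0.30, in the same order. Genes of early granulocyte stages were therefore detected beside those of mature cells, with 30 °C replicate 1 as the highest library in both.

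Mpo, the peroxidase of primary granules, reached 693, 416 and 116 scaled CPM at 30 °C and 82.0 and 149 at 4 °C. Its log2 fold change was −1.82 ± 0.77 (SE, edgeR, adjusted p = 0.74), and the groups overlapped. Ms4a3, a marker of granulocyte and monocyte progenitors, had a log2 fold change of −2.39 ± 1.00 (SE, adjusted p = 0.74). Among secondary and tertiary granule genes, the collagenase Mmp8 reached 155, 70.8 and 42.3 scaled CPM at 30 °C and 21.1 and 30.6 at 4 °C, so that its groups did not overlap. Its log2 fold change was −1.79 ± 0.57 (SE, edgeR, adjusted p = 0.69). The gelatinase Mmp9, at −1.39 ± 0.50 (SE, adjusted p = 0.71), and the integrin subunit Itgb2l, at −1.61 ± 0.48 (SE, adjusted p = 0.69), also had groups that did not overlap. Among mature neutrophil genes, Hdc, which makes histamine, had a log2 fold change of −1.57 ± 0.52 (SE, adjusted p = 0.70), and Il1f9, an interleukin-36 cytokine, of −1.54 ± 0.50 (SE, adjusted p = 0.69). The chemokine receptor Cxcr2 reached 93.5, 56.3 and 39.1 scaled CPM at 30 °C and 27.8 and 33.4 at 4 °C. It did not overlap between the groups, at −1.04 ± 0.38 (SE, edgeR, adjusted p = 0.71). Mxd1, a repressor of the Myc network, had a log2 fold change of −0.81 ± 0.27 (SE, adjusted p = 0.69). The groups of Hdc, Il1f9 and Mxd1 did not overlap either.

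**Figure D4:**
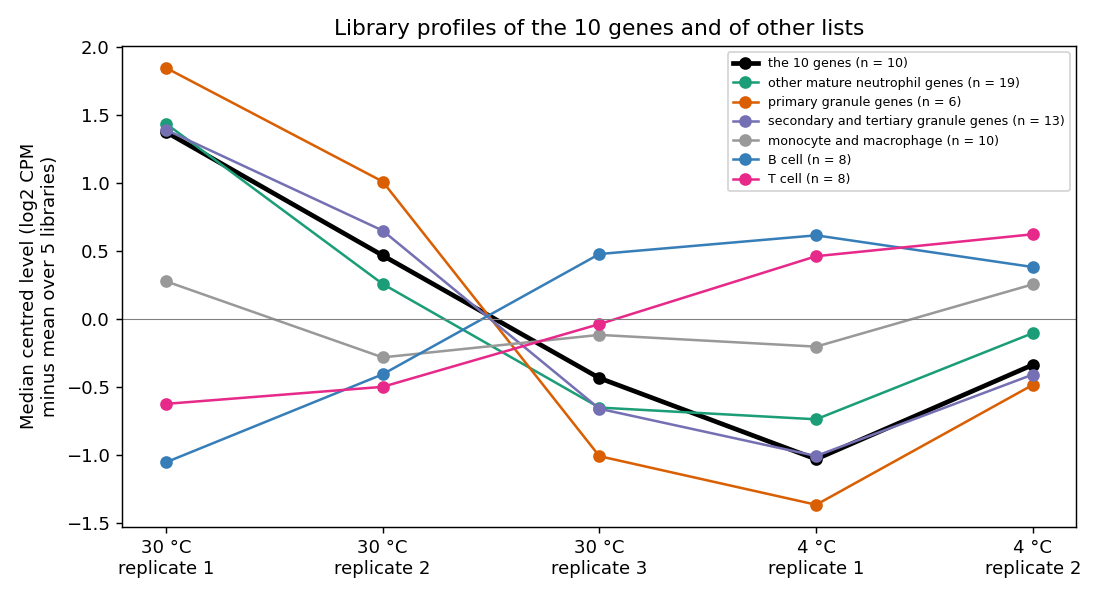
Median centred log2 CPM of each list in each library, which is the log2 level of a gene minus its own mean over the 5 libraries. Lines only join the points of a list and imply no order. The 10 genes (black) stand at 1.37 in 30 °C replicate 1 and −1.03 in 4 °C replicate 1, close to the neutrophil lists, whereas the B cell and T cell lists are lowest in 30 °C replicate 1.

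Ligands, partners and relatives of the 10 genes were read from the same fit. Over all related lists, the neutrophil ones included, 140 of 177 genes were tested, and edgeR called 0 at an adjusted p under 0.05. At an unadjusted p under 0.05 there were 21 genes (15% of those tested, beside 6.76% of all genes), with 16 lower and 5 higher at 4 °C, and DESeq2 called Il1rl1 only. The groups did not overlap for 24 of the 140 with 4 °C lower and for 8 with 4 °C higher. Over all genes tested these shares were 11% and 12.2%. The genes higher without overlap include S100a4, S100a10, Ager, Hcst, Ly6d and Cxcl12. Those lower without overlap include Pygl, Ly6c2, Ly6i, Il1a, Il1rap and C5ar2. Overlap is not stated again for each gene below. Counts of negative log2 fold changes in the lists that follow stand beside 49.3% of all genes tested. The adjusted p of a gene outside the 10 given here is that of the edgeR test over all 16133 genes.

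The other S100 genes differed from the alarmins in the sign of their log2 fold change. S100a6 and S100a11 were still highest in 30 °C replicate 1, at 192 and 235 scaled CPM. They were 2 of the 7 tested, beside 18.9% of all genes tested. Both stood nearly as high in 4 °C replicate 2, at 184 and 227. All 7 that were tested, of 15 listed, had a positive log2 fold change, with a median of 0.37 that became −0.16 without 4 °C replicate 2. S100a4, a calcium-binding protein of motile cells, reached 53.6, 39.3 and 41.2 scaled CPM at 30 °C and 53.9 and 121 at 4 °C, a log2 fold change of 0.97 ± 0.35 (SE, adjusted p = 0.71). S100a10, the partner of annexin A2, reached 103, 75.5 and 85.1 at 30 °C and 108 and 177 at 4 °C, at 0.69 ± 0.26 (SE, adjusted p = 0.71). S100a13 had a log2 fold change of 0.41 ± 0.26 (SE, adjusted p = 0.82). Of the receptors of calprotectin, Tlr4 lay between 16.7 and 24.9 scaled CPM in all libraries and Ager between 1.39 and 2.57, and the log2 fold changes were −0.09 ± 0.24 (SE, adjusted p = 0.96) and 0.53 ± 0.38 (SE, adjusted p = 0.84). The sign for Tlr4 changed under other settings. Lbp, which hands lipopolysaccharide to the Tlr4 complex, reached 84.1 scaled CPM in 30 °C replicate 1 and between 6.11 and 17.8 in the other libraries, the same highest tumour as for Il1r2. The adhesion molecule Mcam, also bound by calprotectin, had a log2 fold change of 0.31 ± 0.23 (SE, adjusted p = 0.84).

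Ligands of the formyl peptide receptors were uneven among the tumours. Saa3, an acute-phase protein, reached 194 scaled CPM in 30 °C replicate 1 and between 0.546 and 3.89 in the other 4 libraries. Its log2 fold change of −4.92 ± 3.25 (SE, adjusted p = 0.84) rested on that tumour and was 0.25 without it. Anxa1, whose product acts on Fpr2, reached 571, 329 and 128 scaled CPM at 30 °C and 116 and 255 at 4 °C, at −0.89 ± 0.67 (SE, adjusted p = 0.85). Camp, the cathelicidin of secondary granules and a ligand of Fpr2, reached 515, 639 and 212 scaled CPM at 30 °C and 198 and 349 at 4 °C, at −0.74 ± 0.50 (SE, adjusted p = 0.83). Anxa1 and Camp thus had the order of tumours seen in most of the 10 genes, apart from the exchange of the highest pair in Camp. Of 8 genes tested in this list of 15, 7 had a negative log2 fold change and none passed an unadjusted p under 0.05.

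Csf3, which encodes G-CSF, was not detectable at this depth in 4 of the 5 tumours and had 1 count in 4 °C replicate 2. A count of 0 allows up to 3 counts, which is 0.148 to 0.185 CPM in these libraries. Of the 17 genes of G-CSF signalling and granulocyte transcription factors tested, 12 had a negative log2 fold change, with a median of −0.22. Csf2rb, the common receptor chain for GM-CSF and interleukin-3, had groups that did not overlap and a log2 fold change of −0.63 ± 0.29 (SE, edgeR, adjusted p = 0.76). Cebpe, a transcription factor of late granule genes, reached 53.2, 31.3 and 14.4 scaled CPM at 30 °C and 12.4 and 18.8 at 4 °C, at −1.08 ± 0.54 (SE, adjusted p = 0.77). Gfi1, a repressor needed for granulocyte formation, had a log2 fold change of −0.77 ± 0.37 (SE, adjusted p = 0.76).

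In the interleukin-1 list of 15 genes, 10 had a negative log2 fold change and 6 did not overlap between the groups with 4 °C lower, beside 49.3% and 11% of all genes tested. Il1rl1, the receptor of interleukin-33, reached 20.8, 21.9 and 16.3 scaled CPM at 30 °C and 8.79 and 10.7 at 4 °C. Its log2 fold change was −1.02 ± 0.23 (SE, edgeR, adjusted p = 0.69), and DESeq2 gave an adjusted p of 0.039. Il18rap, a subunit of the interleukin-18 receptor, and the inflammasome sensor Nlrp3 also did not overlap, at −0.78 ± 0.21 and −0.73 ± 0.23 (SE, both with adjusted p = 0.69). The ligands Il1a and Il1b had log2 fold changes of −0.80 ± 0.48 (SE, adjusted p = 0.81) and −0.35 ± 0.30 (SE, adjusted p = 0.86). Il1rn, the receptor antagonist, stood at −0.74 ± 0.43 (SE, adjusted p = 0.80) and the co-receptor Il1rap at −0.50 ± 0.21 (SE, adjusted p = 0.74). Il1r1 had the opposite sign to Il1r2, at 0.39 ± 0.27 (SE, adjusted p = 0.83). Il1b was highest in 30 °C replicate 3, at 63.7 scaled CPM, where most of the 10 genes were low.

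Of the TREM family and its adaptors, 5 of 11 genes had a negative and 6 a positive log2 fold change. Tyrobp, the adaptor of Trem1, reached 211, 160 and 155 scaled CPM at 30 °C and 150 and 241 at 4 °C, a log2 fold change of 0.16 ± 0.26 (SE, adjusted p = 0.93) with overlapping groups. Pglyrp1, a granule protein and ligand of Trem1, ranged from 48.1 to 206 scaled CPM at 30 °C and stood at 45.6 and 85.6 at 4 °C, at −0.85 ± 0.63 (SE, adjusted p = 0.84). Trem3 had a log2 fold change of −1.39 ± 0.69 (SE, adjusted p = 0.77), the signalling adaptor Card9 of −0.92 ± 0.50 (SE, adjusted p = 0.79) and the adaptor Hcst, used by lymphocyte receptors, of 0.75 ± 0.24 (SE, adjusted p = 0.69).

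Relatives of Ly6g and Retnlg went both ways, with 3 of the 9 tested negative. Ly6c2, a marker of inflammatory monocytes, reached 251, 260 and 160 scaled CPM at 30 °C and 113 and 142 at 4 °C, at −0.81 ± 0.27 (SE, edgeR, adjusted p = 0.69). Ly6i, of the same family, stood at −1.13 ± 0.36 (SE, adjusted p = 0.69). Ly6d, which is expressed by B cell precursors and B cells, stood at 0.90 ± 0.35 (SE, adjusted p = 0.71). Beside the glucosidase Mgam, Pygl, the glycogen phosphorylase of liver and neutrophils, reached 156, 103 and 67.3 scaled CPM at 30 °C and 51.3 and 58.0 at 4 °C, at −0.997 ± 0.357 (SE, adjusted p = 0.71). The glucosidase Ganab of the endoplasmic reticulum stood at −0.10 ± 0.16 (SE, adjusted p = 0.92). Among 19 genes of neutrophil attraction and adhesion, with a median of −0.27, Cxcl12, the ligand that retains neutrophils in the marrow, stood at 0.62 ± 0.19 (SE, adjusted p = 0.69) and the complement receptor C5ar2 at −0.65 ± 0.28 (SE, adjusted p = 0.74).

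**Figure D5:**
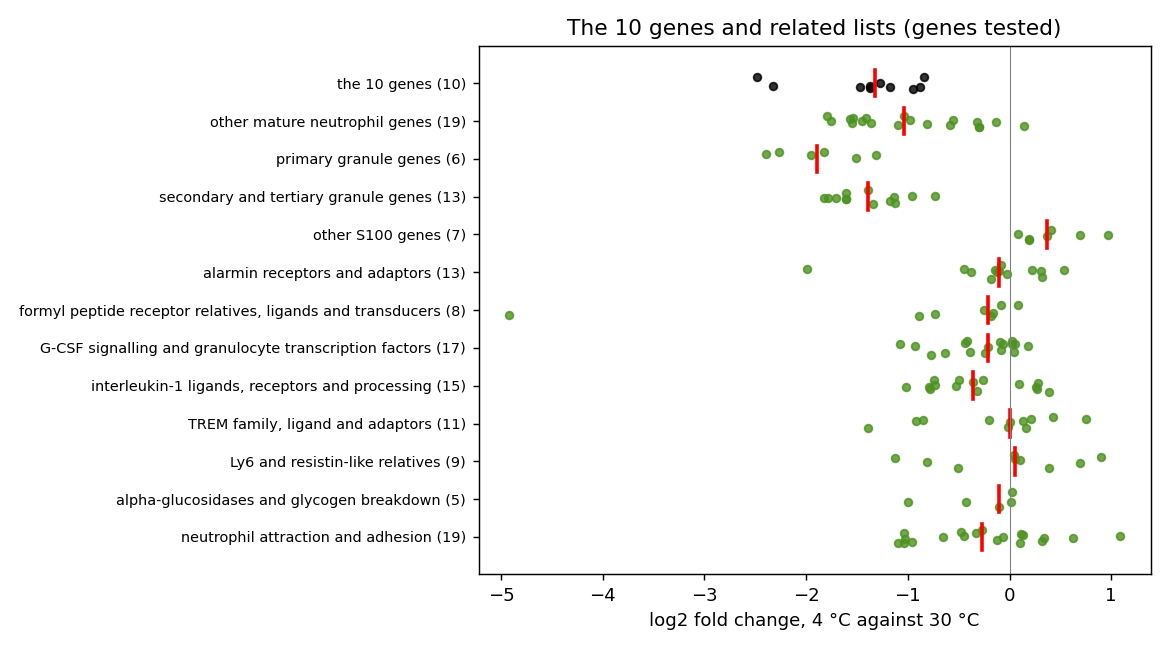
Log2 fold change (4 °C against 30 °C, edgeR) of the 10 genes and of each tested gene in the related lists, with a point for each gene, the list median as a red bar and the number of genes tested in brackets. The 10 genes and the 3 other neutrophil lists have medians from −1.89 to −1.04, and the remaining lists from −0.35 to 0.37.

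Genes outside the 10 whose profile over the 5 libraries lay nearest to their median profile were Scrg1, Lilr4b, Prss57, Adgrg3, Plppr3, Cebpe, Hdc, Trem3, Mcemp1 and Padi4, in this order. Nearness was the root-mean-square distance of centred log2 CPM, which ran from 0.086 to 0.172 for these genes. The median over all genes outside the 10 was 0.891. Because these genes were picked as the nearest, their small distances follow from the choice. The 10 genes themselves lay between 0.143 and 0.683 from their median profile, and 1 of them was within 0.172. Of the nearest genes outside the 10, 3 belong to the neutrophil lists, namely the granule protease Prss57, the histone-modifying enzyme Padi4 and Hdc. The likeness is a description over 5 libraries that share their depth and scaling.

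Markers of other cell types also differed among the tumours. The 8 B cell genes summed to 1157, 1758 and 3138 scaled CPM at 30 °C and 3543 and 2981 at 4 °C, which is the reverse of the library order seen in 6 of the 10 genes, and all 8 had a positive log2 fold change. The 8 T cell genes summed to 272, 314 and 436 at 30 °C and 581 and 620 at 4 °C, and 7 of them did not overlap between the groups with 4 °C higher, beside 12.2% of all genes tested. Erythroblast genes, of which 7 were in the table, summed to 4274, 5056 and 2420 scaled CPM at 30 °C and 2765 and 2715 at 4 °C, so they were high in the libraries in which the 10 genes were high. Monocytes can express S100a8 and S100a9 too, and 10 monocyte and macrophage genes summed to 2222, 1562 and 1714 at 30 °C and 1689 and 2532 at 4 °C, with 3 of 10 negative. The 10 genes of eosinophils, basophils and mast cells summed to between 268 and 507, a sum carried by the eosinophil genes Prg2, Epx and Ccr3 and lowest in 30 °C replicate 1. Of these 10, 7 had a negative log2 fold change, beside 49.3% of all genes tested. The groups of 4 did not overlap, with 4 °C lower, beside 11% of all genes. 30 °C replicate 1 was highest for 4, beside 18.9%. The mast cell protease Cpa3 reached 13.9 scaled CPM there and between 2.14 and 7.54 in the other libraries. The IgE receptor chain Ms4a2 reached 3.03 there and between 0.993 and 1.74 elsewhere. Mcpt8, by contrast, was nearly even at 30 °C (6.01, 5.99 and 5.89), and Prss34 and Siglecf were highest in 30 °C replicate 2. The 8 megakaryocyte genes summed to between 295 and 480. The part of these cells, and of the acinar counts of 30 °C replicate 2, in the levels of the 10 genes was not tested. With the acinar genes removed before scaling, the median log2 fold change of the 10 genes was −1.34.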

How the data were processed

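RNA-seq of 5 tumours, 3 at 30 °C and 2 at 4 °C, was analysed from the deposited table of read counts per gene symbol, which are whole numbers and were taken as unnormalized. The study's methods name featureCounts, whereas the submitters' processing notes name fastp, HISAT, RSEM and GRCm38, so which tool counted the deposited reads is unsettled. The strand setting is not given in the sources used here. The kit is described as TruSeq, and RNA amounts are stated per group. Of 54446 entries, 333 without a name (0.0101% to 0.0170% of a library's counts) were left out. Another 27 were named with dates and could not be assigned. Of 97 symbols on several entries, the entry with the most counts kept the symbol.

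Counts were filtered with filterByExpr, scaled by TMM and tested with the quasi-likelihood F-test of edgeR 4.0.16 (R 4.3.3, robust, no covariate), adjusted by Benjamini-Hochberg over 16133 genes at 0.05. Log2 CPM used a prior count of 2. Intervals at 95% are Wilson or exact Poisson (scipy 1.17.1). Counts of 3 or fewer were taken as the floor. Exon lengths came from GENCODE M21 and promoters from RefSeq. The methods were tested on simulated counts. The 10 genes, the related lists and the marker lists were chosen with earlier results of these data known. Named outside the 10 are the 3 genes with the smallest unadjusted p in each related list, direct partners and the 10 nearest profiles. A gene under this rule is not reported here. Alternatives were DESeq2 1.42.0, other scalings and filters, acinar genes removed, a replicate block, no robust estimation and each library left out.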

Additional observations from a re-analysis of the deposited data

How the results depend on the processing

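With all 5 libraries edgeR called 0 of 16133 genes and 0 related genes. DESeq2 called 118 genes and 1 related gene (Il1rl1, adjusted p = 0.039), library totals without TMM factors gave 8 genes, and an unadjusted p under 0.05 gave 1090 genes and 21 related genes. Leaving out each library in turn gave 0 calls. The medians of the 10 genes then ran from −1.79 to −0.69, and from −1.59 to −1.23 under the other settings, and all 10 were negative throughout. The cause of these shifts was not tested. Among the 1090 genes, 61.7% were lower at 4 °C, against 50.5% with upper-quartile scaling, 51.6% with library totals only and 73.9% without 4 °C replicate 2. Library totals only moved the median of all genes from 0.01 to 0.11.

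The labels do not say whether libraries with the same replicate number belong together. The deviations of same-numbered libraries correlated at −0.25 (number 1) and 0.26 (number 2). In the cold group of 2 libraries, deviations from the group mean mirror each other, so these correlations are not separate checks. They cannot decide whether the numbers mark a pairing or a batch. The replicate block called 44 genes and 3 related genes, Itgb2l (edgeR, adjusted p = 0.044), Chil3 and Ltf, the last pair named after their values were seen. In this setting 30 °C replicate 3 is alone in its block, so it adds nothing to the comparison of the temperatures. The median of the 10 genes was −1.59 with the block, beside −1.64 when 30 °C replicate 3 was left out.

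Of 140 values of single members, none changed sign, and 137 moved by less than the gene's own SD of log2 CPM among the 30 °C libraries. That SD includes 30 °C replicate 1 and was 1.82 for Il1r2, 1.24 for S100a8 and 0.126 for Csf3r. The count of 137 therefore does not show which genes were stable. The values that moved by more were Csf3r without either 4 °C library (−0.72 and −1.24) and Il1r2 without 30 °C replicate 1 (−0.48). Of 616 values of named related genes, 5 changed sign. These were Saa3 without 30 °C replicate 1 (0.25, and −6.92 without 4 °C replicate 2), Tlr4 with library totals only (0.00066, where leaving out libraries gave −0.40 to 0.16), without 30 °C replicate 3 (0.0013) and without 4 °C replicate 2 (0.16), and Tyrobp without 4 °C replicate 2 (−0.24, and 0.46 without replicate 1). Their adjusted p ran from 0.039 to 1.00 over all alternatives. Without a 4 °C library, the lone 4 °C sample is assumed to vary like the 30 °C group. Low counts limit the precision of Mgam and Saa3 at 4 °C and of Csf3 throughout.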
